A study of Mus musculus with 2 samples.

Results

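The genes described here are the 7 members of the Trem2 signalling pathway Trem2, Tyrobp, Hcst, Syk, Plcg2, Inpp5d and Cd33, out of 31053 genes listed in the count tables. They were taken by name, and all 7 had counts in both libraries. The cells were microglia, the resident macrophages of the brain, sorted from the hypothalamus of young wild-type mice. Dye-labelled plasma protein had been injected 20 hours earlier, and the sort separated cells that carried the dye (plasma-positive) from cells that did not (plasma-negative). Several mice were pooled, and each sort gave 1 library of the droplet method Chromium 3' v3.1. With 1 library per group and pooled mice, replicates are lacking and none of the differences below was tested.

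Trem2 is a surface receptor of microglia that binds lipids and lipoproteins, ApoE among them. It has no signalling motif of its own and pairs with the adaptor DAP12, encoded by Tyrobp, whose phosphorylated tyrosine motif recruits the kinase Syk and, further down, the phospholipase PLCγ2 (Plcg2). The adaptor DAP10 (Hcst) recruits PI3 kinase beside DAP12, while the lipid phosphatase SHIP1 (Inpp5d) and, in human cells, the sialic acid receptor CD33 oppose the pathway, which is known in the brain for driving the response of microglia to lipid debris and plaques.

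On the mouse build GRCm38 (GENCODE M21), Trem2 lies on chromosome 17 from 48346401 to 48354147 on the plus strand. Syk lies on chromosome 13 from 52583173 to 52648792, Plcg2 on chromosome 8 from 117498291 to 117635142 and Inpp5d on chromosome 1 from 87620312 to 87720507, all on the plus strand. The other 3 members lie on chromosome 7: Tyrobp from 30413760 to 30417585 on the plus strand, Hcst from 30417712 to 30419854 on the minus strand, and Cd33 from 43524216 to 43544428 on the minus strand. Tyrobp and Hcst therefore point at each other, with 126 bases between their 3' ends. Kit v3.1 captures RNA near the 3' end, and whether strand was used in counting is not given in the sources used here, so a mix of reads between these neighbours cannot be told apart from their own counts. Plcg2 overlaps 1 other annotated gene, Gm27361, on the opposite strand.

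The 250 bases before the transcript start were read from RefSeq (GRCm38.p6) for the 6 members with an entry (Trem2, Hcst, Syk, Plcg2, Inpp5d and Cd33), which gave 7 windows because Syk has a pair of starts. They were searched on both strands for AGGAAG, the core that the myeloid factor PU.1 and other ETS factors can bind, with CTTCCT as its reverse complement. The receptor, the adaptor Hcst and the phosphatase are shown because their windows overlap no annotated exon and hold the motif close to the start. Sequences run 5' to 3' along the gene, and capitals mark the motif.
Trem2, chr17:48346151-48346400, plus strand: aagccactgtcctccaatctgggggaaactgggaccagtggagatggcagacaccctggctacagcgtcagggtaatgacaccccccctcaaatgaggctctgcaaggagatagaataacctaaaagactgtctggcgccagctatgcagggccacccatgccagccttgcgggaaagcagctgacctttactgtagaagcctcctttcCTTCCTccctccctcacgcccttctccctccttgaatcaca
Hcst, chr7:30419855-30420104, minus strand: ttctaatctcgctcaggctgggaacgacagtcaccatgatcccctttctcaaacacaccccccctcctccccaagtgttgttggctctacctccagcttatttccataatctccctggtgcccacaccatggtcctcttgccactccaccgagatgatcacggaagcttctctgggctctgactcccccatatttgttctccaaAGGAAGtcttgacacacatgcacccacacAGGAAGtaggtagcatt
Inpp5d, chr1:87620062-87620311, plus strand: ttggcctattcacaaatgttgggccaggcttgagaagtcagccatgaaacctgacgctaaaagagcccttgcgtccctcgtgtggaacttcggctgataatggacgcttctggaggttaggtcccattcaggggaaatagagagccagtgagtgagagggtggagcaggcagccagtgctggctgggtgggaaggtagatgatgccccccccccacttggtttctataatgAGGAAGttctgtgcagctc
The Trem2 match lies on the opposite strand and begins 41 bases before the start. Hcst has 2 matches, at 46 and 17 bases, and Inpp5d has 1 at 19 bases. Cd33 has 1 match at 225 bases, and the windows of Syk and Plcg2 have 0. Of 32851 windows of the same length over all genes, 29.5% hold the motif on either strand. These matches describe the letters only.

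After filtering, 9860 plasma-negative cells with 34534518 molecules (UMIs) and 10362 plasma-positive cells with 41984977 UMIs were kept, at a median of 3270.5 and 3753 UMIs per cell. All 11 microglia markers were detected, and 99.7% of cells in both libraries held at least 4 of them. At most 2 cells in a library held 4 or more markers of any other cell type listed. The 9 T or NK cell markers summed to 0.290 and 0.214 counts per 1000000 UMIs (CPM) in the plasma-negative and plasma-positive library, and the 8 neutrophil markers to 0.927 and 0.929 CPM. Higher sums came from the dendritic cell list (69.0 and 69.7 CPM, of which Batf3 gave 56.9 and 58.5), the oligodendrocyte list (60.1 and 61.7 CPM), the B cell list (48.1 and 48.7 CPM, nearly all Cd79b) and the endothelial list (31.6 and 34.8 CPM). Too few cells of another type were present to read the level of free RNA from one that should lack these genes. Intervals in this text are 95% intervals that cover counting error only, and none covers differences between mice, sorts or library preparations.

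The first comparison asked whether microglia of the 2 sorts differed in the pathway. Its members were at close to the same level in both sorts. Tyrobp was the member furthest from equal, at 1.12 times its plasma-negative level, while Trem2 itself, Inpp5d and Cd33 were slightly lower in the plasma-positive library.

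For Trem2, the receptor, 89976 UMIs in the plasma-negative library gave 2605 CPM (2588 to 2622), and 103894 UMIs in the plasma-positive library gave 2475 CPM (2460 to 2490). The plasma-positive library was the lower one by a small margin, and the counting intervals did not overlap. The ratio was 0.950 (0.941 to 0.958), a log2 ratio of -0.07.

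Tyrobp, which encodes the adaptor that carries the signal of Trem2, had 92310 UMIs or 2673 CPM (2656 to 2690.3) in the plasma-negative library. In the plasma-positive library it had 125837 UMIs or 2997 CPM (2981 to 3014). Here the plasma-positive library was the higher one, with a ratio of 1.12 (1.11 to 1.13) and a log2 ratio of 0.17. Receptor and adaptor thus stood on opposite sides of equality: 1.03 Tyrobp UMIs were counted per Trem2 UMI in plasma-negative cells (1.02 to 1.04) and 1.21 in plasma-positive cells (1.20 to 1.22). This quotient does not depend on the library total, and its value in 1 library says nothing of which gene has more RNA, since capture can differ between genes.

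Hcst, the second adaptor, was the member with the fewest counts, at 37.5 CPM (35.5 to 39.6) against 40.8 CPM (38.8 to 42.7) with plasma. Its ratio of 1.09 (1.01 to 1.17) lay on the same side as that of Tyrobp, its convergent neighbour. Because Tyrobp had 71.3 UMIs per Hcst UMI in plasma-negative cells and 73.5 in plasma-positive cells, reads from Tyrobp counted for Hcst could weigh on this value, and their part in it was not tested.

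Downstream of the adaptors, Syk, the kinase that docks on phosphorylated DAP12, was at 86.1 CPM (83.0 to 89.2) in plasma-negative and 83.9 CPM (81.2 to 86.7) in plasma-positive cells. Its ratio of 0.975 (0.928 to 1.02) included equality, and its direction reversed under TMM scaling. Plcg2, the phospholipase that releases calcium and diacylglycerol signals, stood at 84.4 CPM (81.3 to 87.5) without and 92.1 CPM (89.2 to 95.0) with plasma, a ratio of 1.09 (1.04 to 1.15). The kinase and the phospholipase thus did not differ from equality in the same way.

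Inpp5d and Cd33, listed as opposing the pathway, were both slightly lower in the plasma-positive library. Inpp5d, which removes the phosphate that PI3 kinase adds to membrane lipids, was at 487 CPM (480 to 494) against 458 CPM (452 to 465), a ratio of 0.941 (0.922 to 0.961). Cd33, a sialic acid-binding receptor whose human counterpart is inhibitory, was at 426 CPM (419 to 433) against 403 CPM (397 to 409), a ratio of 0.946 (0.925 to 0.967). The plot of levels shows how small these steps were on the scale of each gene.

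**Figure D1:**
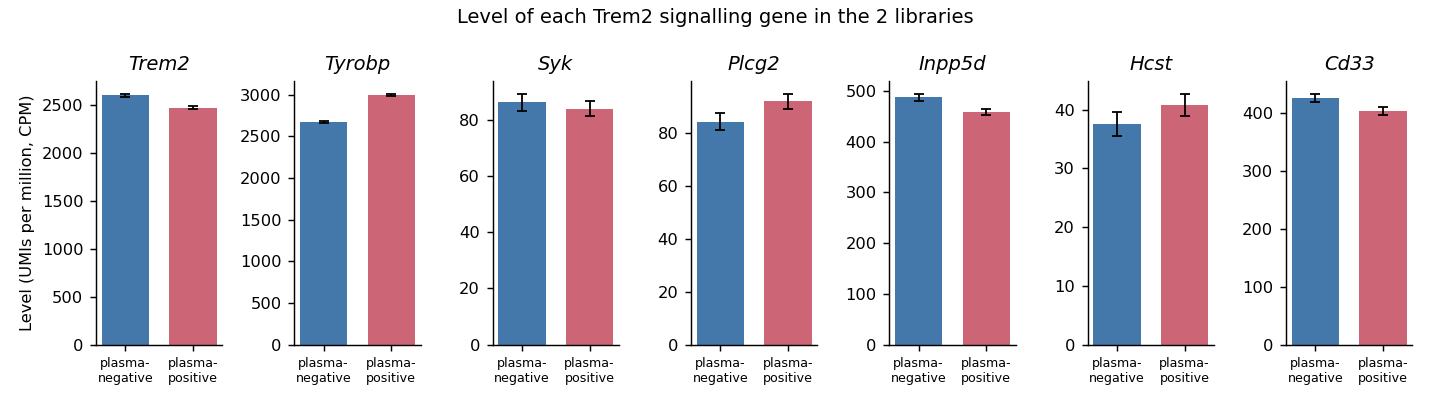
Level of each of the 7 genes in the plasma-negative and the plasma-positive library, in CPM, with 1 bar per library and its 95% Poisson interval. Each panel has its own axis from 0, Tyrobp is higher in the plasma-positive library (2997 against 2673 CPM) and Trem2 is lower (2475 against 2605 CPM).

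Of the 7 members, 0 were past 1.5-fold in either direction, where 0.347% of the 8355 genes with at least 10 CPM in either library were (29 genes). At 1.1-fold 1 member, Tyrobp, was higher, where 6.82% of all genes were, and 0 were lower, where 16.5% of all genes were. The median log2 ratio of the members was -0.04, the same as the median of -0.04 over all genes, with quartiles at -0.11 and 0.04.

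The libraries differed in depth and in mitochondrial share (a median of 1.08% and 1.27% of UMIs), so the ratios were also taken within 10 bins of cells of like depth and within 10 bins of like mitochondrial share. The Tyrobp ratio was above 1 in 10 of 10 depth bins and in 10 of 10 mitochondrial bins, at 1.12 and 1.09 when standardised over them. Trem2 was below 1 in 9 of 10 bins of either kind, at 0.964 and 0.947. The share of UMIs on 83 ribosomal protein genes was 8.99% in the plasma-negative and 10.0% in the plasma-positive library, a ratio of 1.12, equal to that of Tyrobp to the digits printed. The part of that share in the Tyrobp ratio was not tested.

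Apoe itself separated the libraries far more than any member did, at 171 CPM in plasma-negative and 1189.95 CPM in plasma-positive cells. The members were therefore also compared separately in cells without and with an Apoe UMI. Among cells with no Apoe UMI, the plasma-positive to plasma-negative ratio was 1.12 for Tyrobp (1.11 to 1.13) and 0.950 for Trem2 (0.940 to 0.961). Among cells with at least 1 Apoe UMI it was 1.05 for Tyrobp (1.04 to 1.07) and 0.923 for Trem2 (0.907 to 0.939). The opposite directions of receptor and adaptor were present in Apoe-free cells as well as in Apoe-holding ones. The Apoe-holding cells of the libraries were not equal in Apoe, with 5916 Apoe UMIs in 1511 plasma-negative and 49960 in 3626 plasma-positive cells. The part of this in their ratios was not tested.

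The second comparison set cells that held at least 1 UMI of Apoe, an apolipoprotein bound by Trem2 and a gene of the disease-associated microglial state, against cells with none. Apoe-holding cells made up 15.3% of the plasma-negative library (1511 of 9860, 14.6% to 16.1%) and 35.0% of the other (3626 of 10362, 34.1% to 35.9%), or 7.88% and 18.5% with each cell thinned to 1000 UMIs. They were deeper than Apoe-free cells, at a median of 3795 against 3199 UMIs in the plasma-negative and 4179.5 against 3564.5 UMIs in the plasma-positive library, so a ratio standardised within depth bins is given beside each value. In both libraries, Tyrobp and Trem2 were higher in the Apoe-holding cells, Tyrobp by more, and Inpp5d was lower.

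In the plasma-negative library Tyrobp was at 2603 CPM in Apoe-free and 2969 CPM in Apoe-holding cells, a ratio of 1.14 (1.12 to 1.16) and the same 1.14 within depth bins. Plasma-positive cells had 2907 and 3130.2 CPM, a ratio of 1.08 (1.06 to 1.09) and 1.09 within depth bins. The Apoe-holding plasma-negative cells (2927 to 3011 CPM) thus lay slightly above the Apoe-free plasma-positive cells (2886 to 2928 CPM), with intervals that met. Ribosomal protein genes again stood beside it, their share of UMIs being 1.13 and 1.16 times as high in the Apoe-holding cells of the plasma-negative and plasma-positive library. Their part in the Tyrobp ratio was not tested.

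Trem2 was at 2578 CPM in Apoe-free and 2720.3 CPM in Apoe-holding plasma-negative cells, a ratio of 1.06 (1.04 to 1.07) and 1.07 within depth bins. In plasma-positive cells it was at 2450.2 and 2510.4 CPM, a ratio of 1.02 (1.01 to 1.04) and 1.05 within depth bins. The receptor was thus higher with Apoe within each library, while it was lower in the library with more Apoe.

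Hcst was at 36.7 and 40.7 CPM in Apoe-free and Apoe-holding plasma-negative cells (ratio 1.11, 0.964 to 1.27) and at 39.6 and 42.5 CPM in plasma-positive cells (ratio 1.07, 0.973 to 1.18). Both intervals included equality. Syk was at 86.5 and 84.4 CPM in the plasma-negative library (0.976, 0.888 to 1.07) and at 84.4 and 83.2 CPM in the plasma-positive library (0.986, 0.921 to 1.06), and its direction reversed under TMM scaling in both. Plcg2 was at 83.8 and 86.6 CPM (1.03, 0.941 to 1.13) and at 93.6 and 89.8 CPM (0.960, 0.899 to 1.02), with no shared direction. The intervals of the kinase and the phospholipase included equality in both libraries.

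Inpp5d was lower in Apoe-holding cells of both libraries, at 491 and 470.3 CPM in plasma-negative cells (ratio 0.958, 0.921 to 0.996) and 468 and 444 CPM in plasma-positive cells (0.947, 0.920 to 0.975). Cd33 was at 428 and 418 CPM in plasma-negative cells, a ratio of 0.976 (0.936 to 1.02) that reversed under TMM scaling. In plasma-positive cells it was at 416 and 384 CPM, a ratio of 0.922 (0.894 to 0.951), and below 1 in 9 of 10 depth bins. The Cd33 interval left out equality in the plasma-positive library and included it in the other, and the difference between the libraries was not tested.

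**Figure D2:**
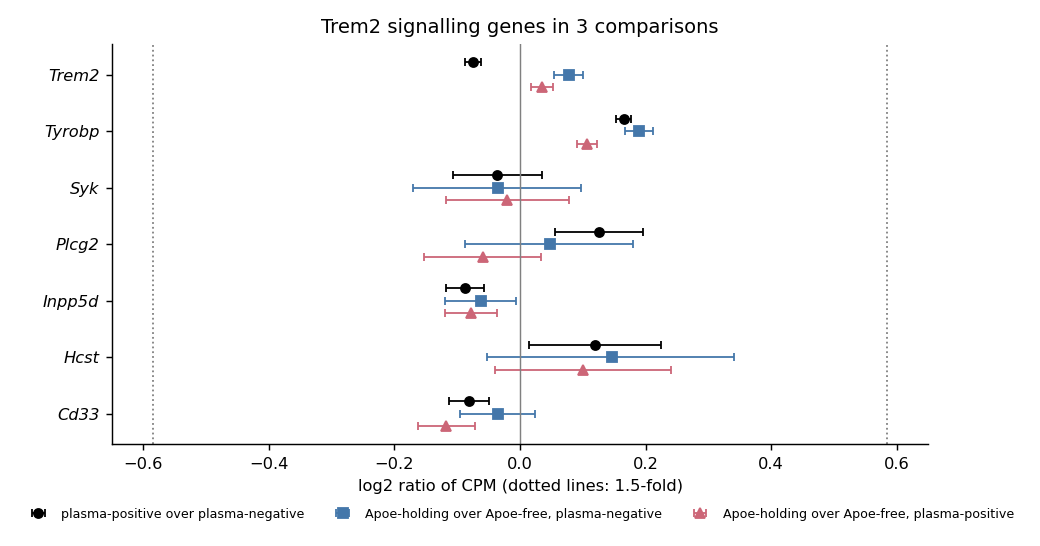
Log2 ratio of CPM for each of the 7 genes in 3 comparisons, with 95% counting intervals (circles, plasma-positive over plasma-negative; squares and triangles, Apoe-holding over Apoe-free cells in the plasma-negative and the plasma-positive library). All points lie inside the dotted lines at 1.5-fold, Tyrobp lies above 0 in all 3 comparisons and Trem2 lies below 0 between libraries and above 0 with Apoe.

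Of the 7 members, 0 were past 1.5-fold with Apoe in the plasma-negative library, against 0.382% of 8379 genes, and 0 in the plasma-positive library, against 0.781% of 8321 genes. At 1.1-fold 2 members, Tyrobp and Hcst, were higher in Apoe-holding plasma-negative cells, where 8.74% of all genes were, and 0 were in plasma-positive cells, where 6.01% were. The median log2 ratio of the members was 0.05 in the plasma-negative and -0.02 in the plasma-positive library, beside -0.05 and -0.06 over all genes. Markers of other macrophages also went with Apoe in the plasma-positive library: the 8 border-associated macrophage markers, 1 of them at 0, summed to 11.9 CPM in Apoe-holding and 3.68 CPM in Apoe-free cells, and the 8 monocyte markers, 2 of them at 0, to 20.5 and 9.45 CPM. Their part in the member ratios was not tested. Just 2 plasma-positive cells held 4 or more border-associated macrophage markers, and 0 cells held 4 or more monocyte markers.

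A single Apoe UMI can also come from free RNA, so the cells were also divided by their raw Apoe count into 0, 1, 2 to 4, 5 to 9 and 10 or more UMIs. These classes held 8349, 756, 439, 175 and 141 plasma-negative cells and 6736, 1698, 916, 324 and 688 plasma-positive cells. Tyrobp was higher in each further class of both libraries, and Cd33 and Inpp5d were at their lowest levels in the 2 classes with the most Apoe.

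Tyrobp was at 2603, 2803, 2976, 3189.9 and 3415 CPM from 0 to 10 or more Apoe UMIs in plasma-negative cells, and at 2907, 2956, 3074, 3286 and 3456 CPM in plasma-positive cells. The plasma-positive library was the higher one in all 5 classes, and the intervals of the libraries overlapped in the classes from 2 to 4 UMIs upward. Within depth bins, the top class was 1.32 times the Apoe-free level in plasma-negative cells (1.26 to 1.37) and 1.21 times in plasma-positive cells (1.19 to 1.24). The ribosomal protein share was 1.34 and 1.45 times as high in these same classes.

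Trem2 was at 2578, 2687, 2697, 2716 and 2941 CPM over the classes in plasma-negative cells, and at 2450.2, 2416, 2531, 2744 and 2570.2 CPM in plasma-positive cells. The receptor followed the Apoe class less evenly than its adaptor and was not highest in the top class of the plasma-positive library. Within depth bins its top class stood at 1.17 (1.12 to 1.22) and 1.09 (1.07 to 1.12) times the Apoe-free level. The number of Tyrobp UMIs per Trem2 UMI was 1.01 without Apoe and 1.16 in the top class of plasma-negative cells, and 1.19 and 1.34 in those of plasma-positive cells.

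Cd33 and Inpp5d went the other way. Cd33 was at 428, 439, 418, 370.3 and 377 CPM in plasma-negative cells and at 416, 408, 398, 356 and 334 CPM in plasma-positive cells, with the top class at 0.852 (0.753 to 0.964) and 0.788 (0.742 to 0.837) times the Apoe-free level within depth bins. Inpp5d was at 491, 487, 471, 426 and 447 CPM in plasma-negative cells and at 468, 479, 455, 416 and 376 CPM in plasma-positive cells. Its top class stood at 0.906 (0.809 to 1.02) and 0.799 (0.755 to 0.846) times the Apoe-free level, so that only the plasma-positive interval left out equality. The difference between the libraries was not tested.

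For the low-count members the top class rested on few molecules, 56 Syk, 55 Plcg2 and 34 Hcst UMIs in plasma-negative cells. In the plasma-positive library, with 276 Syk, 319 Plcg2 and 184 Hcst UMIs, Syk stood at 0.817 (0.716 to 0.932), Plcg2 at 0.845 (0.748 to 0.956) and Hcst at 1.22 (1.03 to 1.44) times the Apoe-free level within depth bins. The plasma-positive intervals of all 7 members thus left out equality, with the receptor and both adaptors above it and the kinase, the phospholipase, the phosphatase and Cd33 below it.

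**Figure D3:**
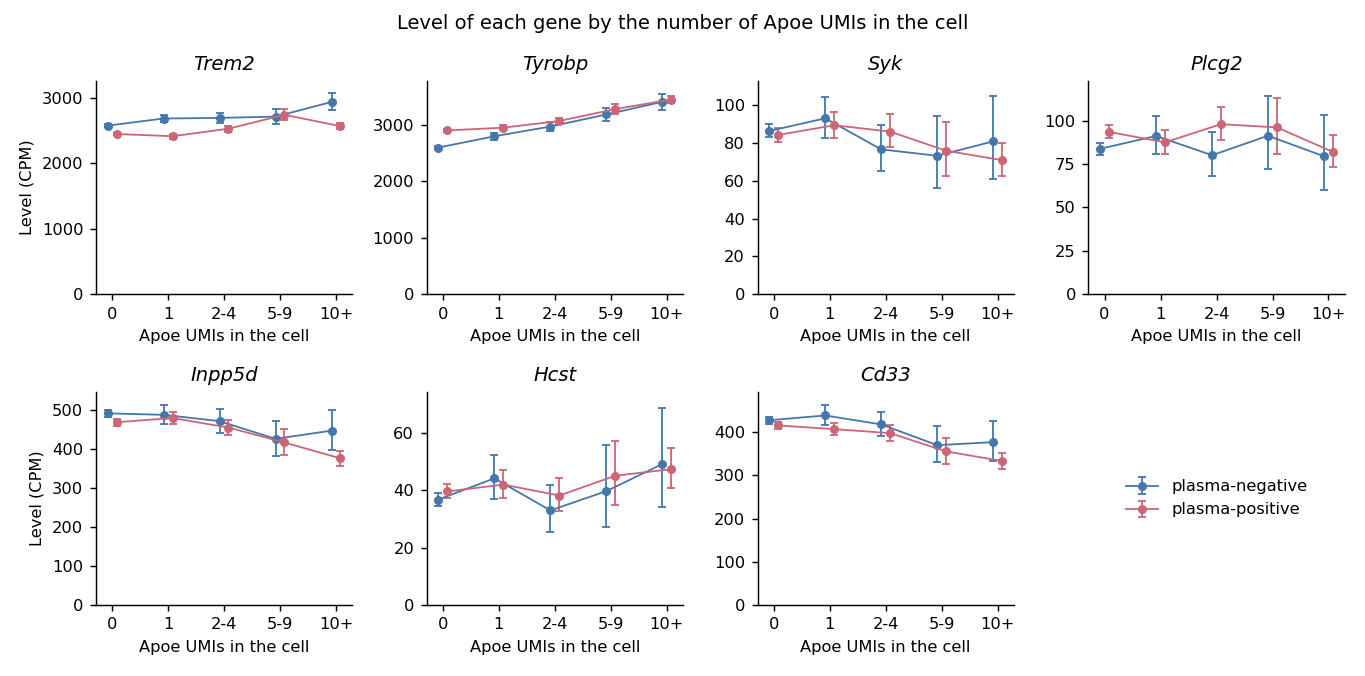
Level of each gene (CPM, axis from 0) in cells with 0, 1, 2 to 4, 5 to 9 and 10 or more Apoe UMIs, with 95% Poisson intervals, in both libraries. Tyrobp is highest in the top class of both libraries (3415 and 3456 CPM), Cd33 is lowest in the top class of the plasma-positive library (334 CPM), and the wide intervals of Syk, Plcg2 and Hcst show their few counts.

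Such distances were common among genes in these small classes. From 0 to 10 or more Apoe UMIs, 0 of 7 members were past 1.5-fold, against 15.8% of 8578 genes in the plasma-negative and 8.1% of 8423 genes in the plasma-positive library. At 1.1-fold, 3 members were higher and 1 was lower in plasma-negative cells, where 22.9% and 47.4% of all genes were, and 2 were higher and 4 lower in plasma-positive cells, where 12.2% and 58% of all genes were. The members' median log2 ratio was -0.08 and -0.19, beside -0.12 and -0.19 over all genes. The lower levels of Syk, Plcg2, Inpp5d and Cd33 in the plasma-positive library thus went with those of most genes.

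Interferon-induced genes were another program that differed between the libraries. An 18-gene type I interferon list summed to 387 CPM in the plasma-negative and 711 CPM in the plasma-positive library. They were not alone in this, as a list of 12 cell cycle genes summed to 38.7 and 66.4 CPM. After each cell was thinned to 1000 UMIs, cells with at least 3 UMIs of the interferon list formed a class. It numbered 152 of 9064 plasma-negative cells (1.68%) and 561 of 9759 plasma-positive cells (5.75%). This class is a range and not a cell type, with 66 and 178 of its cells at exactly 3 UMIs and 367 and 521 cells outside it at exactly 2. Syk was at 58.0 CPM in the plasma-positive cells of this class, 0.678 (0.574 to 0.801) times its level in the other cells within depth bins, the furthest of any member. Cd33 stood at 0.816 (0.761 to 0.875), Inpp5d at 0.846 (0.793 to 0.902) and Plcg2 at 0.858 (0.745 to 0.989), while Trem2 was at 0.964 (0.939 to 0.990), Tyrobp at 1.04 (1.02 to 1.07) and Hcst at 1.07 (0.886 to 1.30). In the smaller plasma-negative class the intervals of Syk, Plcg2, Inpp5d, Hcst and Cd33 all included equality, and Trem2 stood at 0.942 (0.895 to 0.992) and Tyrobp at 1.07 (1.02 to 1.13).

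Cells with both programs were rare in the plasma-negative library, where 4 cells had 10 or more Apoe UMIs and 3 or more interferon UMIs, too few to describe. The 161 such plasma-positive cells had 261 Cd33 CPM (228 to 296), 0.612 (0.536 to 0.698) times the level of cells with neither, within depth bins. Syk was at 51.9 CPM (38.0 to 69.2), a ratio of 0.590 (0.439 to 0.793) that rests on 46 UMIs, and Inpp5d was at 0.721 (0.642 to 0.810). Tyrobp was at 1.22 (1.18 to 1.27) and Trem2 at 1.01 (0.966 to 1.06). In the 515 plasma-positive cells with 10 or more Apoe UMIs but fewer interferon UMIs, Cd33 was at 356 CPM and 0.834 (0.781 to 0.891), Syk at 0.873 (0.757 to 1.01) and Tyrobp at 1.22 (1.19 to 1.24). The Tyrobp ratio was thus the same to the digits printed in Apoe-rich cells above and below the interferon minimum, and Cd33 was below equality in both, with the difference between them not tested.

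Between the 161 cells with both programs and the cells with neither, 2 members, Syk and Cd33, were lower past 1.5-fold, where 24.8% of 8549 genes were, and 0 were higher, where 6.34% were. In the interferon class as a whole, 0 of 7 members were past 1.5-fold in either library, against 16.6% of 8687 plasma-negative and 7.36% of 8395 plasma-positive genes. The members' median log2 ratio in that class was -0.09 and -0.21, beside -0.06 and -0.13 over all genes. Ribosomal protein genes took 1.57 times the share of UMIs in the cells with both programs as in those with neither, and their part in the levels of the other genes was not tested.

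Cells with a UMI of Lpl, Cst7, Spp1, Itgax or Gpnmb, genes of the later disease-associated stage that is known to need Trem2, numbered 924 plasma-negative (9.37%) and 1210 plasma-positive cells (11.7%), or 3.32% and 3.99% with each cell thinned to 1000 UMIs. Most UMIs of these genes were of Lpl, 1178 in plasma-negative and 1305 in plasma-positive cells, against 193 and 418 of Cst7, the next. Of the cells in this class, 723 and 890 held exactly 1 such UMI, and they were deeper than the cells with none, at a median of 3910.5 against 3218 and 4588.5 against 3670.5 UMIs. They also held Apoe more often, in 24.8% against 14.3% of the plasma-negative cells and 53.1% against 32.6% of the others, and the part of Apoe and of free RNA in the ratios was not tested. In the plasma-positive library Trem2 was 1.07 times (1.05 to 1.08) and Tyrobp 1.12 times (1.1 to 1.13) as high in these cells within depth bins, and Inpp5d was at 0.845 (0.809 to 0.882) and Cd33 at 0.865 (0.827 to 0.905). In the plasma-negative library Trem2 was at 1.01 (0.991 to 1.03), Tyrobp at 1.05 (1.03 to 1.07), Syk at 0.787 (0.696 to 0.889), Plcg2 at 0.837 (0.741 to 0.945), Inpp5d at 0.944 (0.899 to 0.991) and Cd33 at 0.905 (0.859 to 0.954). The direction for Tyrobp, Inpp5d and Cd33 was shared by both libraries. Of the 7 members, 0 were past 1.5-fold in either library, against 0.89% of 8426 and 1.43% of 8372 genes. At 1.1-fold 2 members were lower and 1 was higher in each library, where 16.4% and 18.3% of plasma-negative genes and 26.9% and 13.7% of plasma-positive genes were.

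The 145 plasma-positive cells with 3 or more such UMIs had Tyrobp at 3955 CPM, 1.37 (1.33 to 1.42) times the level of cells with none, the highest of any class described. In the same cells Inpp5d was at 309 CPM and 0.649 (0.577 to 0.729), and Cd33 at 302 CPM and 0.728 (0.647 to 0.820). In the 91 plasma-negative cells of this kind, Tyrobp stood at 1.19 (1.13 to 1.25), Inpp5d at 0.841 (0.734 to 0.963) and Cd33 at 0.833 (0.721 to 0.962). The ribosomal protein share was 1.35 and 1.19 times as high in these plasma-positive and plasma-negative cells, and its part was not tested. Plcg2 in the plasma-negative cells was at 0.421 (0.268 to 0.662), which rests on 19 UMIs. These were the members past 1.5-fold: Plcg2 in plasma-negative cells, where 10.8% of 8619 genes were lower past that size, and Inpp5d in plasma-positive cells, where 11.8% of 8526 genes were. This higher minimum was chosen after the values at 1 UMI had been seen.

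How the members were spread over single cells was described at equal depth, with each cell thinned to 1000 UMIs, which left out 796 plasma-negative and 603 plasma-positive cells. Among plasma-negative cells 90.4% (89.7% to 91.0%) held a Trem2 UMI, and among plasma-positive cells 88.7% did. For Tyrobp the shares were 88.8% (88.1% to 89.4%) and 91.2%. Both genes were detected in the same cell in 81.1% and 81.4% of cells. Inpp5d was detected in 36.8% and 35.5%, Cd33 in 32.9% and 31.9%, Syk in 8.14% and 7.77%, Plcg2 in 8.20% and 8.57%, and Hcst in 3.78% and 4.20% of cells. The order of the libraries was the same as for the CPM in all 7 members. Without thinning all 7 shares were higher in the deeper plasma-positive library, at 95.9% and 96.9% for Trem2 and 67.8% and 71.0% for Cd33, so that for Trem2, Syk, Inpp5d and Cd33 the unthinned share went against the CPM and gives no order.

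The counts per thinned cell formed 1 broad distribution, with no separate group of cells without the receptor or the adaptor. The shallower cells that thinning left out, 796 plasma-negative and 603 plasma-positive, were not part of it. Without thinning, Tyrobp was detected in fewer cells than Trem2 in both libraries, though its CPM was higher. The shares were 92.1% and 95.9% in the plasma-negative and 94.7% and 96.9% in the plasma-positive library. Whether the shallow cells held a group without Tyrobp was not tested. Cells with 0, 1, 2 and 3 Trem2 UMIs made up 9.63%, 20.0%, 23.0% and 19.3% of thinned plasma-negative cells and 11.3%, 21.4%, 23.2% and 18.8% of plasma-positive ones. For Tyrobp these shares were 11.2%, 19.6%, 21.8% and 18.3% in plasma-negative and 8.76%, 16.2%, 20.4% and 19.4% in plasma-positive cells. The plasma-positive library thus had fewer cells with 0, 1 or 2 Tyrobp UMIs and more with 3. The variance over the mean, which is 1 for counting noise alone, was 1.25 and 1.30 for Trem2, 1.42 and 1.38 for Tyrobp, and no higher than 1.08 for the other members.

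**Figure D4:**
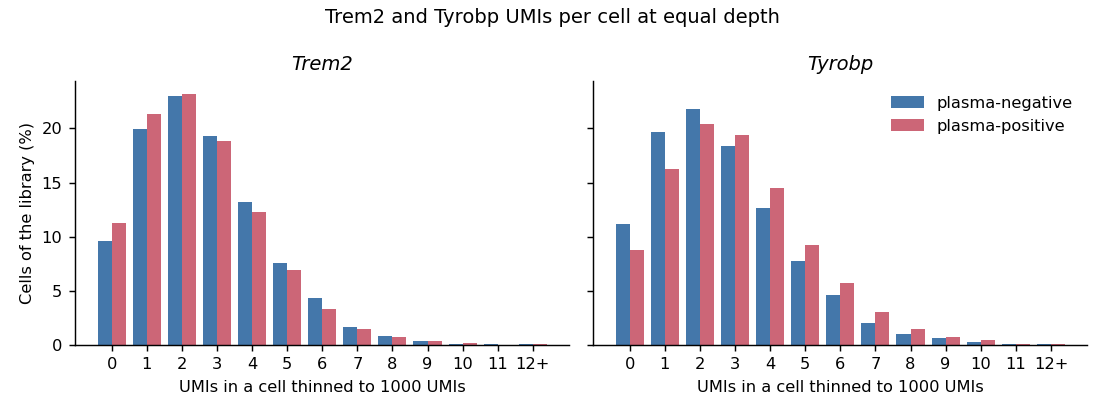
Share of cells (%) by the number of Trem2 or Tyrobp UMIs in a cell thinned to 1000 UMIs, for both libraries, with 12 or more UMIs in 1 bar. Both genes have a single peak at 2 UMIs, and cells with 0 Tyrobp UMIs are 11.2% of the plasma-negative and 8.76% of the plasma-positive library.

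Over cells, receptor and adaptor were only weakly related, with a Pearson r of 0.116 over the plasma-negative and 0.128 over the plasma-positive cells, which share a library and depth. All other pairs of members lay between -0.0751 and 0.0453. In counts this sparse, such values are a description and no finding. Of thinned cells, 0.563% in the plasma-negative and 0.328% in the plasma-positive library had none of the 7 members detected.

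Levels also went with cell depth and mitochondrial share. In the shallowest quintile of cells, at a median of 1186.5 UMIs in the plasma-negative and 1724 UMIs in the plasma-positive library, Tyrobp was at 2060.1 and 2661 CPM, against 2659 to 2869 and 2948 to 3138 CPM in the other quintiles. Inpp5d was the reverse, at 660 and 562 CPM in the shallowest quintile against 446 to 496 and 425 to 461 CPM in the others. For Tyrobp this distance was that of the Apoe-free cells, at 1959.9 and 2496 CPM in the shallowest quintile. The Apoe-holding cells of that quintile, at 2921 and 3146 CPM, lay within the range of the other quintiles, 2880.2 to 3299.9 and 3066 to 3324 CPM. Over quintiles of mitochondrial share, Tyrobp was at 2239 CPM in the lowest and 2838 CPM in the highest quintile of plasma-negative cells, and at 2763 and 3140.0 CPM in those of plasma-positive cells. Trem2 stayed between 2525 and 2640.0 CPM and between 2423 and 2501 CPM over the same quintiles.

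**Figure D5:**
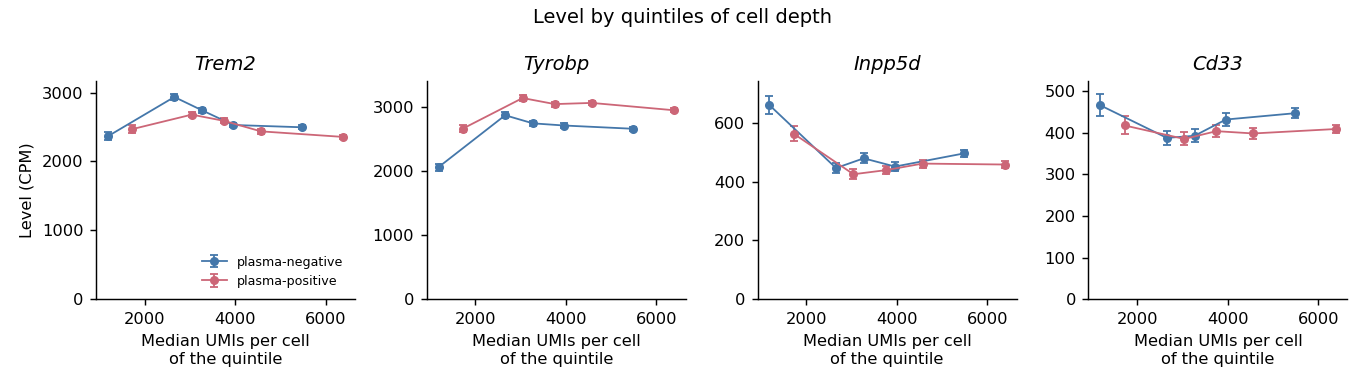
Level (CPM, axis from 0) of Trem2, Tyrobp, Inpp5d and Cd33 in quintiles of cells by depth, plotted at the median UMIs per cell of each quintile, with 95% Poisson intervals. The shallowest quintile stands apart for Tyrobp (2060.1 CPM in plasma-negative cells) and for Inpp5d (660 CPM), while the plasma-positive line of Tyrobp lies above the plasma-negative line throughout.

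Over 20 strata (library, quintile of depth and Apoe status), the 5 genes most like Trem2 among 3356 genes with at least 50 CPM in both libraries were Cyba (r of log2 CPM 0.926), Cd300c2 (0.913), Cd68 (0.871), Tmem86a (0.869) and Ddost (0.869). Cyba encodes a subunit of the phagocyte NADPH oxidase and Cd68 a lysosomal membrane protein of macrophages. Those most like Tyrobp were Rps23 (0.975), Uqcrh (0.972), Rplp0 (0.970), Rpl10 (0.967) and Tpt1 (0.967), 3 of which encode ribosomal proteins. Trem2 and Tyrobp had an r of 0.5002 with each other, and Inpp5d had -0.81 with Tyrobp. The strata share libraries, depth and cells, so these values are descriptions and carry no test.

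Other genes of the pathway were near equality between the sorts as well. A list of 15 receptors was drawn up for DAP12 and DAP10, and direct pairing of each with these adaptors was not checked. Of these receptors, 4 had at least 10 CPM and 0 passed 1.5-fold, with Csf2rb (59.5 and 62.9 CPM in the plasma-negative and plasma-positive library) and Clec5a (128 and 116 CPM), a myeloid lectin, at the ends. Of 40 kinases, adaptors and effectors below the tyrosine motif, 35 were compared and 0 passed, with the lowest ratio for Gsk3b (180.3 and 166 CPM), and the median log2 ratio was -0.01. Of 25 inhibitory receptors and phosphatases, 19 were compared and 0 passed, with Siglecf (17.7 and 18.6 CPM) and Lilra5 (28.6 and 24.7 CPM) at the ends. At 1.1-fold 4 of them were lower, where 16.5% of all genes were, and their median was -0.05, beside -0.04 over all genes. Of 13 genes of Trem2 shedding and the Ms4a family, 9 were compared and 0 passed, with a median of 0.05 and with Ms4a6c (68.6 and 78.9 CPM) and Ms4a6b (156 and 150.2 CPM) at the ends.

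With Apoe, single genes of these lists passed 1.5-fold. Fgr, a Src family kinase of myeloid cells, was at 6.66 CPM in Apoe-free and 13.001 CPM in Apoe-holding plasma-negative cells (log2 ratio 0.96, 0.58 to 1.34) and at 6.04 and 11.1 CPM in plasma-positive cells (0.88, 0.56 to 1.20). It was 1 of 36 and 1 of 37 compared genes of the kinase list, with a list median of -0.04 in both. In the plasma-positive library, Cd22, an inhibitory sialic acid receptor, was at 6.40 and 12.2 CPM (0.93, 0.62 to 1.23), and Ms4a4c at 5.12 and 14.4 CPM (1.49, 1.17 to 1.81). These 3 genes met the minimum of 10 CPM only in the Apoe-holding cells and were under it in both libraries as a whole, so they were not among the genes compared between the sorts. Ms4a4c also stood on the monocyte marker list, whose sum was higher in the same cells.

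Genes that are known to depend on Trem2 in disease-associated microglia formed a further list, which was not tested against the members. Of 14 such genes, 7 were compared between the sorts, and their median was 0.13, beside -0.04 over all genes. Just 1 passed 1.5-fold, where 0.347% of all genes did. This was Axl, a receptor for lipids on dying cells, at 3.30 CPM in the plasma-negative and 12.9 CPM in the plasma-positive library (log2 ratio 1.96, 1.67 to 2.27). With Apoe, 2 of 7 passed in the plasma-negative library, Axl (1.504 and 10.9 CPM) and the lipoprotein lipase Lpl (30.5 and 49.3 CPM). In the plasma-positive library 5 of 9 passed: Axl (4.68 and 24.9 CPM), the cystatin Cst7 (4.88 and 17.4 CPM), the integrin Itgax (3.48 and 10.4 CPM), Lpl (22.5 and 43.7 CPM) and the tetraspanin Cd63 (337 and 530.1 CPM). Over all genes, 0.382% passed in the plasma-negative and 0.781% in the plasma-positive library. The list medians were 0.37 and 0.65, beside -0.05 and -0.06 over all genes, and 0 genes of the list were lower past 1.5-fold in any of these comparisons. Axl, Cst7 and Itgax met the minimum of 10 CPM only on the side where they were high. So did Csf1 between the sorts (9.03 and 12.7 CPM) and with Apoe in the plasma-negative library (8.56 and 11.04 CPM). Its log2 ratio of 0.37 in the latter is the list median. These counts and medians therefore describe the genes that passed the minimum and support nothing further. Of 9 genes of the earlier stage of that state, which is known to form without Trem2, 1 passed between the sorts, Apoe itself (log2 ratio 2.80, 2.76 to 2.84). At 1.1-fold 7 were higher, Apoe and the member Tyrobp among them, where 6.82% of all genes were. The list median was 0.20, beside -0.04 over all genes, and the list was chosen with earlier results of these data known. With Apoe, the lysozyme Lyz2 passed in both libraries (178 and 329 CPM in plasma-negative, 209.6 and 428 CPM in plasma-positive cells) and the MHC class I gene H2-D1 in the plasma-positive library (468 and 746 CPM).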

How the data were processed

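Droplet single-cell RNA sequencing libraries were analysed, 1 plasma-negative and 1 plasma-positive. The values the authors deposited are raw UMI counts for each gene in each cell. The file headers name Cell Ranger 6.1.2 as their source, and the submitters' processing notes name Cell Ranger 3.0.1. The genome build, annotation and use of strand are not given in the sources used here, and cell barcodes were not used, so sharing of barcodes between libraries was not analysed here. The cell filter (500 UMIs and 300 genes or more, mitochondrial UMIs up to 10%) left out 18 of 9878 and 28 of 10390 cells.

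Counts were summed over cells and divided by the summed total (CPM), with no pseudocount and no length correction. Because each group is 1 library, no test was run: intervals are at 95%, from the exact Poisson distribution for CPM, the exact binomial one (Clopper-Pearson) for shares and the conditional binomial one for ratios. Ratios were also standardised within 10 bins of cells by depth or mitochondrial share (observed over expected counts, delta-method interval). Shares were taken after thinning each cell to 1000 UMIs without replacement. A gene counted as past the fold at 1.5-fold (and, chosen later, at 1.1-fold), among genes with at least 10 CPM on either side, with Apoe or the list genes that defined a class left out. Interferon classes were set in thinned cells and the other classes in cells at their own depth.

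Scrublet (scanpy 1.11.5) called 0 doublets in both libraries at its automatic threshold, so it had not worked, and no cell was removed for it. As an alternative, the 779 and 861 cells with the highest scores were left out. TMM factors came from edgeR 4.0.16 (R 4.3.3) and served only as an alternative scaling. Other tools were Python 3.11.15, numpy 2.4.6, scipy 1.17.1, pandas 2.3.3 and matplotlib 3.10.9. The ratio script was tested on simulated data: its intervals held the true ratio for 95.4% of 8249 genes in the comparison of the libraries, 95.7% of 8272 with Apoe in the plasma-negative and 95.6% of 8223 in the plasma-positive library. The simulated counts were Poisson draws, the noise that the intervals assume, so this coverage was built in. It checks the arithmetic only, and coverage for real cells, which vary beyond counting noise, was not tested.

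All 7 members are named. From each other list, genes past 1.5-fold are named or, where there are none, those with the highest and lowest ratio, except 1 gene that is not reported here. The members and the lists were chosen with earlier results of these data known. Coordinates are from GENCODE M21 (GRCm38) and promoter windows from RefSeq (GRCm38.p6), which need not be the build the authors used.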

Additional observations from a re-analysis of the deposited data

How the results depend on the processing

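With 1 library per group, the data cannot separate plasma uptake from differences between the sorts or library preparations. No paired analysis was possible because the 2 groups hold a single library each and no test was run, which also means that no library could be left out. The 1.1-fold size, the higher Apoe and effector minimums, the Apoe-split ratios and the removal of the shallowest quintile were chosen after seeing the data. The count of members past 1.5-fold was 0 in all 3 comparisons under every alternative run at that fold. At 1.1-fold it was 1 between the libraries, 2 with Apoe in the plasma-negative library and 0 in the plasma-positive library. Over the single Apoe, interferon and effector classes the count was 0, against 1 with the mean over cells (Hcst in plasma-negative cells with 10 or more Apoe UMIs) and 2 with an effector minimum of 3 UMIs, and in plasma-positive cells with 10 or more Apoe and 3 or more interferon UMIs it was 2 (Syk and Cd33). Members with a larger share of cells in the plasma-positive library numbered 3 at 1000 and at 2000 UMIs and 7 with no thinning. Directions were compared across the alternatives other than those that raised the Apoe minimum or split the libraries by Apoe. Across these, Trem2, Tyrobp, Inpp5d and Hcst kept their direction in all 3 comparisons. Syk had the other direction under TMM scaling in all 3, with Apoe in the plasma-negative library also in thinned cells and in the plasma-positive library also without mitochondrial and ribosomal UMIs. Between the libraries Plcg2 kept its direction, with a log2 ratio from 0.04 in thinned cells to 0.16 under TMM scaling. With Apoe in the plasma-negative library, Plcg2 had the other direction with the mean over cells and in thinned cells, and Cd33 under TMM scaling. Outside that set, Plcg2 in this library also had the other direction with the Apoe minimum at 10 UMIs, on few molecules. Over all genes, those past 1.5-fold between the libraries numbered 27 higher and 2 lower, 32 and 1 under TMM scaling, 31 and 19 in thinned cells, 5 and 0 at 50 CPM or more, and 2884 and 1810 with no minimum. With Apoe they numbered 14 higher and 18 lower in the plasma-negative library (21 and 10 under TMM scaling, 126 and 362 in thinned cells, 3 and 0 at 50 CPM or more, 1499 and 3224 with no minimum) and 62 higher and 3 lower in the plasma-positive library (66 and 1 under TMM scaling, 68 and 102 in thinned cells, 12 and 0 at 50 CPM or more, 2011 and 2140 with no minimum).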
